A study of Mus musculus with 238 samples.

Results

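The genes described here are 9 repressor genes of the circadian clock, out of the 21076 genes of the count table: the period genes Per1, Per2 and Per3, the cryptochrome genes Cry1 and Cry2, the nuclear receptor genes Nr1d1 and Nr1d2 (Rev-erb alpha and beta), and Bhlhe40 and Bhlhe41 (Dec1 and Dec2). They were taken by name, with earlier results of these data known. They were followed through every brain region and the liver of mice under dietary restriction or injection of young plasma. RNA of 15 brain regions was sequenced in bulk from C57BL/6JN mice aged 19 months, and no mouse took part in both of the 2 experiments. One of them set 5 females under dietary restriction (aDR, written DR on the liver libraries) against 4 females fed freely (AL), and the liver of all 9 was sequenced as well. The plasma experiment was on males, of which 3 received plasma of young mice (YMP) and 4 received PBS, both by injection behind the eye. The brain libraries numbered 131 for diet and 98 for plasma, since some regions lacked 1 or 2 mice, and groups within a region held 2 to 5 mice. Sex and experiment therefore cannot be told apart, and the labels give neither the hour at which tissue was taken nor a sequencing batch.

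The clock of mammalian cells is a feedback loop. The activators CLOCK and BMAL1 (gene Arntl) bind E-box sequences and switch on the Per and Cry genes, whose proteins form a complex that enters the nucleus and represses CLOCK and BMAL1. A second loop runs through REV-ERB proteins, which repress Arntl by competing with ROR proteins for the same DNA element, and DEC proteins compete for E-boxes. Transcripts of these genes rise and fall through the day in most tissues, and feeding time is known to set the phase of the liver clock. Whether the groups compared here were sampled at the same hour is not known from the labels, and a shift of phase and a change of mean level cannot be told apart in these data.

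Promoter windows are shown for Per1, Cry1 and Nr1d1, since Per1 was called higher in the restricted brain, Cry1 in brain and liver, and Nr1d1 was called lower in the restricted liver. RefSeq promoters (GRCm38.p6) were at hand for 7 of the 9 genes, with 8 starts in all, and none for Per2 and Bhlhe40. Each line gives the 250 bases before the start site on the gene's strand, 5′ to 3′, at chr11:69098699-69098948 for Per1 (plus strand), chr10:85185055-85185304 for Cry1 (minus strand) and chr11:98775378-98775627 for Nr1d1 (minus strand). Capitals mark a match to a searched motif on either strand.
Per1: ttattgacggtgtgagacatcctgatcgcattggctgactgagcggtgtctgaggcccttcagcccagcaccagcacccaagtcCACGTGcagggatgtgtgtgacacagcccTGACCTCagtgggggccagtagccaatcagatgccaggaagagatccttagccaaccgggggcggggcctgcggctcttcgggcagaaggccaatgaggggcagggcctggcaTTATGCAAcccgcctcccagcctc
Cry1: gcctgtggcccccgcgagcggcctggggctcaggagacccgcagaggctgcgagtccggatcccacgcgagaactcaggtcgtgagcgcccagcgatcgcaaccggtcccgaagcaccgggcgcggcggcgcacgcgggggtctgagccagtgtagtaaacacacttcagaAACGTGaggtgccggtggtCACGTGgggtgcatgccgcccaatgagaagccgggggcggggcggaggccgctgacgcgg
Nr1d1: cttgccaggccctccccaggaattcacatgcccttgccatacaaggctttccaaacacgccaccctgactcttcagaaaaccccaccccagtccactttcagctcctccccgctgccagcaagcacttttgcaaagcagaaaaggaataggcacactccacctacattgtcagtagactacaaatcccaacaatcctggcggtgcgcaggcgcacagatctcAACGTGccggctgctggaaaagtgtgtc
In the Per1 window the capitals are, in order, an E-box (CACGTG), a ROR half-site (NAGGTCA, here on the other strand) and a D-box (TTATGNAA). The Cry1 window holds the E-box variant CACGTT on the other strand, followed by an E-box on the strand shown. RefSeq lists a further start of Per1, and its window held no match of the motifs searched. The Nr1d1 window holds that variant, also on the other strand, close to the start site. Among the 8 member starts, which were searched over 300 bases, the E-box was found in the promoters of Per1, Cry1 and Bhlhe41, and it lay in 7.15% of all 32851 RefSeq promoters of that length. The variant was found in Cry1, Cry2 and Nr1d1 (4.68% of all promoters), the D-box in Per1 and Per3 (3.38%), and the ROR half-site in Per1 and Nr1d2 (16.2%). The cAMP response element TGACGTCA was found at none of the 8 starts (1.79% of all promoters). These are matches of letters in a short window and no measure of binding.

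On GRCm38 (GENCODE M21), Per1 spans positions 69095217 to 69109960 of chromosome 11 and Nr1d1 98767932 to 98775333 of the same chromosome. Per2 lies on chromosome 1 (91415982 to 91459324), Per3 on chromosome 4 (151003652 to 151044665), Cry1 on chromosome 10 (85131700 to 85185064) and Cry2 on chromosome 2 (92403646 to 92434043). Nr1d2 lies on chromosome 14 (18204054 to 18239127), and Bhlhe40 (108660629 to 108666925) and Bhlhe41 (145858243 to 145865558) lie on chromosome 6. Counts cover whole genes, so they do not separate isoforms.

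All 9 genes had counts in all 238 libraries, and all 9 passed the filter on low counts in each of the 31 tissue comparisons. The depth per library lay between 0.606 and 32.4 M counts (M, mega; median 8.44 M), and 6 libraries held under 2 M. Tissue labels were checked against marker genes. The summed level of 4 liver cell markers was 66420 to 95880 CPM (counts per M counts of the library, scaled for composition) in liver and at most 13.5 CPM in any brain library. Choroid plexus markers spanned 159 to 15720 CPM in the choroid plexus libraries and reached 20020 CPM in an SVZ library, so they do not separate these labelled regions. Hypothalamic markers spanned 4.44 to 2108 CPM in the hypothalamus libraries, but 40 libraries of other regions lay above the lowest of these, up to 826.3 CPM in a medulla library. Striatal neuron markers spanned 2442 to 9356 CPM in caudate putamen, and 8 libraries of other regions lay above that minimum, up to 3219 CPM in corpus callosum. One library of the pons, that of aDR mouse 67, was unlike the rest: the pituitary hormone genes Prl and Gh reached 155700 and 33430 CPM there, against at most 1348 and 385.8 CPM in the other pons libraries of that experiment. The pons changes of Per1, Per2, Per3 and Bhlhe41 are given with and without it, as is the number of repressors called across the brain.

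In freely fed brains the repressors differed widely in level. Levels were divided by the kilobases of exon of all annotated transcripts together, which allows a rough comparison of genes. The length of the transcripts in use is not known, so close values give no order. On this scale the mean over the 15 regions of AL mice was highest for Nr1d1 (44.7 CPM per kb), with Bhlhe40 (29.0), Nr1d2 (26.4) and Cry2 (25.0) next. Cry1 (12.6) and Bhlhe41 (11.2) were intermediate. The period genes were lowest, with 5.81 CPM per kb for Per1, 5.98 for Per2 and 6.81 for Per3. In the liver of AL mice, Nr1d1 (38.1 CPM per kb) and Bhlhe40 (33.8) were again highest, while Cry1 stood at 1.16 and Bhlhe41 at 0.346 CPM per kb. Liver and brain were scaled separately, so a level set across them is approximate.

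The order of the regions is best read gene by gene, in CPM of the AL mice (mean ± SD, 4 mice unless stated). Per1, a core partner of CRY whose transcript also responds to light and glucocorticoids, was highest in olfactory bulb (76.6 ± 9.71), visual cortex (60.5 ± 6.09) and motor cortex (47.6 ± 5.37), and lowest in hypothalamus (16.6 ± 1.89), pons (14.2 ± 1.75) and medulla (13.5 ± 2.64). Per2, whose protein sets the length of the cycle, was highest in visual cortex (64.7 ± 4.12), caudate putamen (52.9 ± 7.44) and motor cortex (47.9 ± 9.33), and lowest in thalamus (18.2 ± 4.50), pons (15.6 ± 2.17) and medulla (15.0 ± 1.86). Per3, which is dispensable for the core loop, was highest in cerebellum (104.9 ± 11.7) and olfactory bulb (83.6 ± 7.17), and lowest in medulla (44.1 ± 4.34) and entorhinal cortex (40.0 ± 1.37, n = 3). The hindbrain regions pons and medulla thus sat at or near the bottom for each of the 3 period genes.

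Cry1, the stronger repressor of the pair, was highest in cerebellum (83.3 ± 11.2) and caudate putamen (61.8 ± 4.23), and lowest in choroid plexus (25.4 ± 3.60) and medulla (20.8 ± 3.00). Cry2 had another order, with visual cortex (234.0 ± 18.8), motor cortex (215.2 ± 17.6) and caudate putamen (200.5 ± 11.8) at the top and pons (108.3 ± 5.62) and medulla (85.7 ± 8.91) at the bottom. Nr1d1 followed that order closely, from 211.2 ± 21.9 in visual cortex and 187.1 ± 0.436 in motor cortex down to 85.0 ± 8.39 in pons and 70.7 ± 5.81 in medulla. Nr1d2 varied least of the 9, from 203.0 ± 11.7 in cerebellum and 177.1 ± 19.8 in thalamus to 112.8 ± 8.36 (n = 3) in entorhinal cortex and 107.8 ± 18.0 in choroid plexus. The mean of its highest region was 1.88 times that of its lowest, against 5.68 times for Per1 and 5.12 times for Bhlhe40.

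The DEC genes had unlike patterns. Bhlhe40, which also responds to neuronal activity and hypoxia, was far higher in visual cortex (348.8 ± 30.4) and motor cortex (297.8 ± 26.4) than in caudate putamen (68.5 ± 10.8) and medulla (68.1 ± 4.91). Bhlhe41 was highest in olfactory bulb (128.8 ± 5.55), caudate putamen (118.6 ± 13.0) and cerebellum (110.3 ± 7.08), and lowest in motor cortex (47.5 ± 4.08) and choroid plexus (45.1 ± 4.18). Over the 15 regional means, the profiles of Bhlhe40 and Bhlhe41 had a Pearson r of -0.35, given as a description. The male PBS mice gave a like order, with a Spearman rho between the AL and PBS regional means of 0.89 (Nr1d2) to 0.97 (Per1) over 15 regions. For a test, the regions were ordered by the mean over control mice of both experiments, an order that differs in places from that of the AL mice. Between neighbours in this order, the difference within mice was tested with an exact sign-flip permutation test, two-sided. Over the 14 steps of each gene's order, 20 pairs of neighbours in all had an unadjusted p under 0.05 and 0 differed after Benjamini-Hochberg adjustment. The smallest p that 8 mice allow is 0.0078, so single steps of the order are not resolved.

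**Figure D1:**
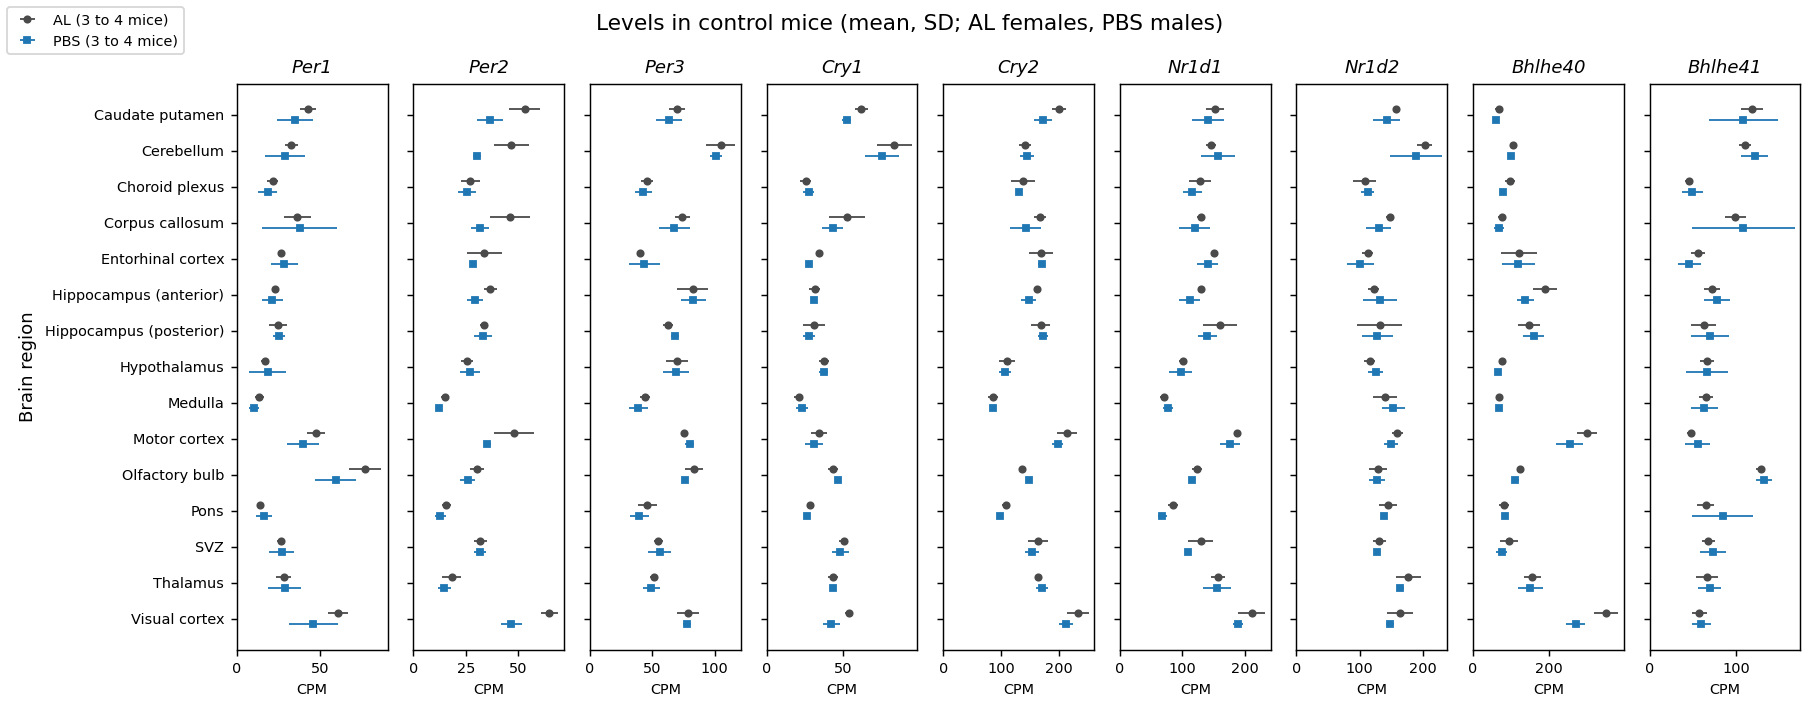
Level of each repressor gene in 15 brain regions of control mice, in CPM on linear axes. Circles are AL females and squares PBS males, bars are SDs over 3 to 4 mice. Per1 runs from 76.6 CPM in olfactory bulb to 13.5 in medulla of AL mice, Nr1d2 only from 203.0 in cerebellum to 107.8 in choroid plexus.

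Genes whose regional profile was most like that of each member were ranked by Pearson r over the 15 regional means of control mice among 15518 genes, as a description. Nr1d1 was most like Arntl (r = 0.95), and Cry2 was also among its first 3 (r = 0.94), and Cry2 was most like Nr1d1. For the others the first gene was no clock gene: Dock3 for Per1 (r = 0.93), Bmt2 for Per2 (0.95), Ankzf1 for Per3 (0.92), Chd2 for Cry1 (0.93), Ppm1b for Nr1d2 (0.88), Jdp2 for Bhlhe40 (0.91) and Afg3l1 for Bhlhe41 (0.94). All regional means share the same mice and library scaling.

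Per1, Per2 and Cry1 were higher across the brain of dietary restricted mice. To compare mice and not libraries, each mouse was given 1 log2 CPM value per gene over its regions, with regional differences taken out, and the 5 aDR mice were compared with the 4 AL mice by limma over 15616 genes. By this test 3 of the 9 repressors were called higher and 0 lower at an adjusted p under 0.05, where 0.922% of all genes tested were called. The values of aDR and AL mice did not overlap for 5 of the 9 genes, Per1, Per2, Per3, Cry1 and Cry2, against 8.30% of all genes. The median log2 change of the 9 was 0.17, and that of all genes -0.0062. The 9 genes and the gene lists were chosen with earlier results of these data known. Shares and medians set against all genes, here and below, are therefore a description and no independent evidence. The p-values measure the spread between mice.

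The mouse values of Per1 were 5.14, 5.13, 5.16, 5.19 and 5.28 log2 CPM in the aDR mice 61, 62, 64, 65 and 67. In the AL mice 63, 66, 68 and 69 they were 4.87, 4.81, 4.75 and 4.99. Every aDR mouse was above every AL mouse, and the difference was 0.33 ± 0.052 (log2 ± SE, limma, adjusted p = 0.0311). Per2 stood at 5.30, 5.34, 5.48, 5.37 and 5.65 in the aDR mice and at 4.96, 4.97, 5.02 and 5.09 in the AL mice. Mouse 67 was highest, the groups did not overlap, and the difference was 0.42 ± 0.070 (limma, adjusted p = 0.0332). Cry1 was 5.65, 5.61, 5.73, 5.62 and 5.73 in the aDR mice and 5.23, 5.32, 5.24 and 5.41 in the AL mice. Again no values overlapped, and the difference was 0.37 ± 0.046 (limma, adjusted p = 0.0131).

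Per3 and Cry2 lay on the other side of the threshold, although their groups did not overlap either. Per3 ranged from 6.08 to 6.34 in aDR and from 5.93 to 6.04 in AL mice, a difference of 0.22 ± 0.052 (limma, adjusted p = 0.0979). Cry2 ranged from 7.35 to 7.46 in aDR and from 7.20 to 7.30 in AL mice, a difference of 0.17 ± 0.033 (limma, adjusted p = 0.0529). The Rev-erb and DEC genes showed smaller differences, with overlapping groups. These were 0.14 ± 0.045 for Bhlhe40 (limma, adjusted p = 0.173), 0.098 ± 0.046 for Nr1d2 (0.343), 0.034 ± 0.038 for Nr1d1 (0.722) and 0.019 ± 0.054 for Bhlhe41 (0.904). A fit on all 131 libraries with mouse as a block (limma voom with an estimated within-mouse correlation) called 5 repressors higher, adding Cry2 and Per3 (adjusted p = 3.0e-06 and 0.00023). That fit uses 1 correlation for all genes, so its p-values do not measure the spread between mice alone. The share of all genes that it called was not computed. In the test on 1 value per mouse, leaving out single mice left 0 to 4 repressors called. The number was 0 without AL mouse 66, and 1 each without aDR mice 61, 62, 64 and 65 and AL mice 63 and 68. The direction held for Per1, Per2 and Cry1 each time.

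**Figure D2:**
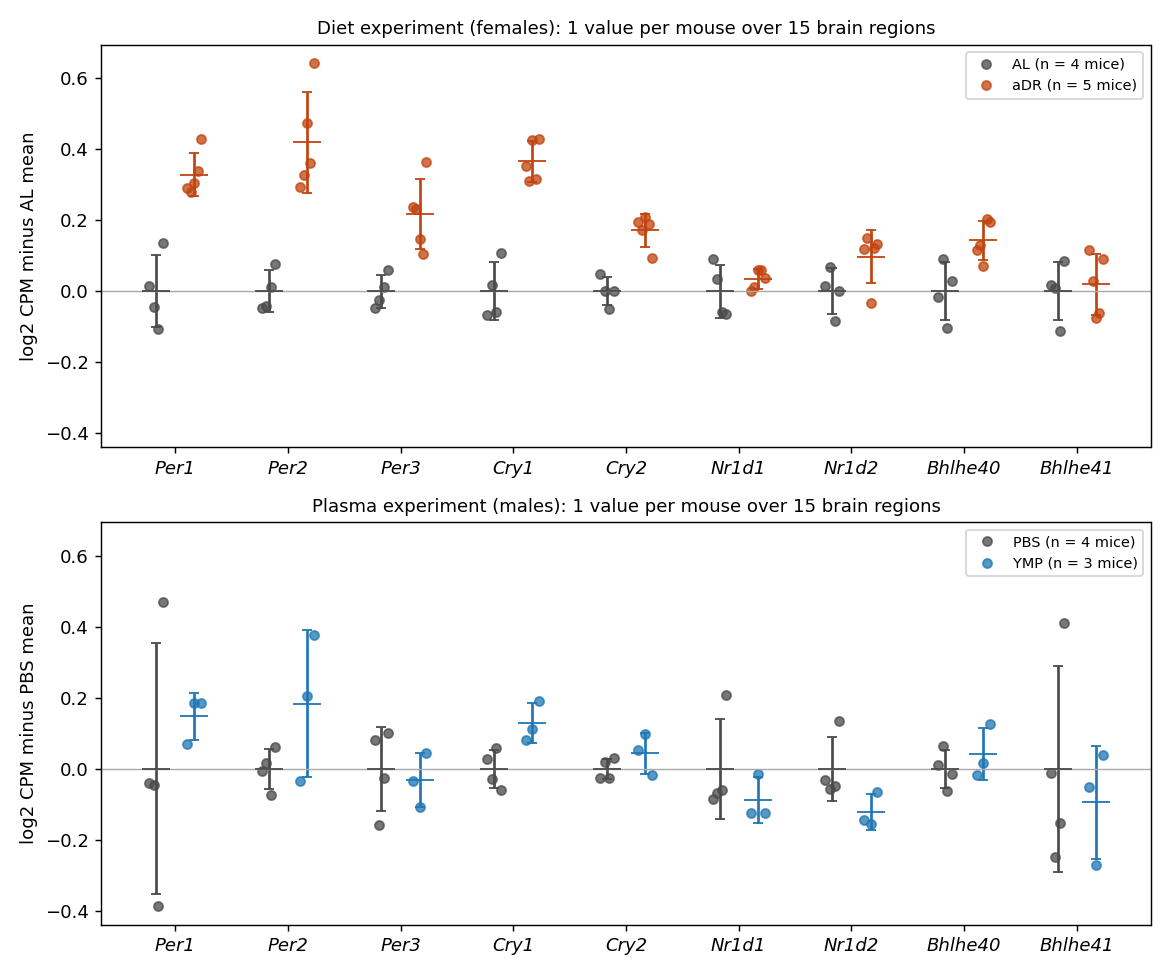
Level of each repressor per mouse over the brain regions, as log2 CPM minus the mean of the control mice, for diet (top) and plasma (bottom). Points are mice, horizontal marks means and vertical bars SDs. The aDR mice lie above all AL mice for Per1, Per2, Per3, Cry1 and Cry2. In the plasma experiment the PBS mice span the YMP mice for Per1.

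Markers of vessel cells moved with the same contrast. Of 4 endothelial markers, Kdr, Flt1 and Cldn5 were called lower in aDR brains (limma), with a median log2 change of -0.37 over the 4, and the mean of their summed level was 86.2 to 92.4 CPM in the aDR mice and 101 to 116 CPM in the AL mice. Their part in the repressor result was not tested. No marker of the other 11 cell types was called in this comparison, and the 3 red blood cell markers had a median change of 1.01. In bulk tissue, fewer cells of a type and less RNA per cell cannot be told apart.

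Within single regions, the same direction recurred but few tests passed. Here every region had a fit of its own (edgeR, quasi-likelihood). Of the 135 pairs of a repressor and a region, the log2 change was above 0 in 116, and 6 pairs were called (all higher in aDR), where 0.0525% of all gene-region pairs were called. The groups did not overlap, with aDR higher, in 36 pairs (26.7%), against 1.61% of all gene-region pairs in that direction. With aDR lower, 0 pairs were without overlap. The share of all gene-region pairs in the lower direction was not computed, so that 0 is no result about the repressors. The regions come from the same 9 mice and are not independent. Cry1 was higher in 15 of 15 regions and without overlap in 9 of them, with changes from 0.16 in olfactory bulb to 0.55 in medulla. Per2 was higher in 15 of 15 regions (no overlap in 6), from 0.24 in visual cortex to 0.74 in pons, and Cry2 in 15 of 15 (no overlap in 3), from 0.058 in motor cortex to 0.37 in olfactory bulb. Per1 and Per3 were each higher in 14 of 15 regions, the exceptions being entorhinal cortex for Per1 (-0.017) and visual cortex for Per3 (-0.028), both values close to 0. Nr1d1 had no such uniformity, with 10 regions higher and 5 lower, from -0.21 in medulla to 0.37 in olfactory bulb. Nr1d2 and Bhlhe40 were each higher in 12 regions, with extremes of -0.10 in caudate putamen and 0.36 in olfactory bulb for Nr1d2, and of -0.17 in thalamus and 0.63 in corpus callosum for Bhlhe40. The Nr1d2 value in caudate putamen rests on 1 library, that of aDR mouse 64, which held 66.8 CPM against 154 to 174 CPM in the other aDR libraries and 156 to 159 CPM in the AL libraries. Without it, a fit chosen after seeing the data, the difference was 0.083. The changes of the other repressors in caudate putamen are given with that library only. Bhlhe41 was higher in 9 and lower in 6, from -0.30 in hypothalamus to 0.40 in motor cortex. For these extremes of Nr1d2, Bhlhe40 and Bhlhe41 the adjusted p in edgeR was at least 0.0724.

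In the cerebellum, Per1 read 51.7, 52.3, 47.8, 49.5 and 63.9 CPM in the aDR mice 61, 62, 64, 65 and 67, and 32.3, 32.4, 28.1 and 37.9 CPM in the AL mice 63, 66, 68 and 69. All 5 aDR libraries were above all 4 AL libraries, with mouse 67 highest, and the change was 0.69 ± 0.098 (log2 ± SE, edgeR, adjusted p = 0.0300), where 0.0524% of genes were called. In motor cortex Per1 read 59.6, 63.5, 56.6, 63.0 and 64.7 CPM in the aDR mice against 42.9, 52.4, 42.9 and 52.0 CPM in the AL mice. The groups did not overlap, and the change was 0.38 ± 0.075 (edgeR, adjusted p = 0.0409), where 0.251% of genes were called.

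The olfactory bulb held 3 of the 6 calls, where 0.220% of genes were called. Per2 read 43.2, 42.6, 50.2, 53.9 and 53.1 CPM in the aDR mice and 25.5, 31.8, 30.8 and 33.0 CPM in the AL mice, a change of 0.66 ± 0.094 (edgeR, adjusted p = 0.0176). Cry2 read 179.4, 178.8, 198.6, 179.2 and 158.5 CPM against 135.5, 139.6, 131.6 and 140.0 CPM, a change of 0.37 ± 0.062 (edgeR, adjusted p = 0.0351). Nr1d1 read 161.4, 160.9, 161.7, 165.4 and 157.8 CPM against 134.9, 118.2, 122.3 and 117.8 CPM, a change of 0.37 ± 0.052 (edgeR, adjusted p = 0.0166). No aDR value overlapped an AL value for any of the 3, and the library of mouse 65 was shallow, with under 2 M counts. In visual cortex, Cry1 read 70.0, 68.7, 83.3, 68.2 and 77.2 CPM in the aDR mice and 56.0, 54.7, 53.5 and 50.5 CPM in the AL mice. The groups did not overlap, and the change was 0.43 ± 0.073 (edgeR, adjusted p = 0.00902), where 0.202% of genes were called. The visual cortex library of mouse 64 was shallow as well, and the same 6 pairs were called when libraries under 2 M were left out. Leaving out single mice, Cry1 in visual cortex stayed called each time. The call of Per2 in olfactory bulb was lost without mouse 63, 64, 66 or 68, that of Nr1d1 without 61, 64, 66 or 68, and that of Cry2 without 61, 63, 64, 66, 68 or 69. Per1 lost its call in cerebellum without mouse 61, 63, 64, 65, 66 or 68, and in motor cortex without any of the 9 but 64 and 69. DESeq2 called 16 repressor-region pairs. The share of all gene-region pairs that it called was not computed, so this count is no result about the repressors.

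An F test in edgeR of the terms that let the diet effect vary by region called 0.0128% of genes. It called 0 of the 9 repressors, with an unadjusted p under 0.05 for Nr1d1 (0.0132) and Bhlhe40 (0.0428) alone, so calls in some regions and not in others do not show regional differences. The largest changes of Per1, Per2 and Per3 were in the pons, where the library of mouse 67 stood apart, with 37.4, 50.9 and 168 CPM against 12.2 to 24.9, 13.2 to 20.6 and 39.5 to 55.8 CPM in the other 8. Without it the pons change went from 0.75 to 0.51 for Per1, from 0.74 to 0.35 for Per2 and from 0.66 to 0.050 for Per3, and none was called with or without it. That of Bhlhe41 turned from 0.016 to -0.064, so the count of its higher regions includes the pons only with that library. Across the brain, leaving out that library left 4 repressors called, Cry2 being added (0.18, limma, adjusted p = 0.0341).

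**Figure D3:**
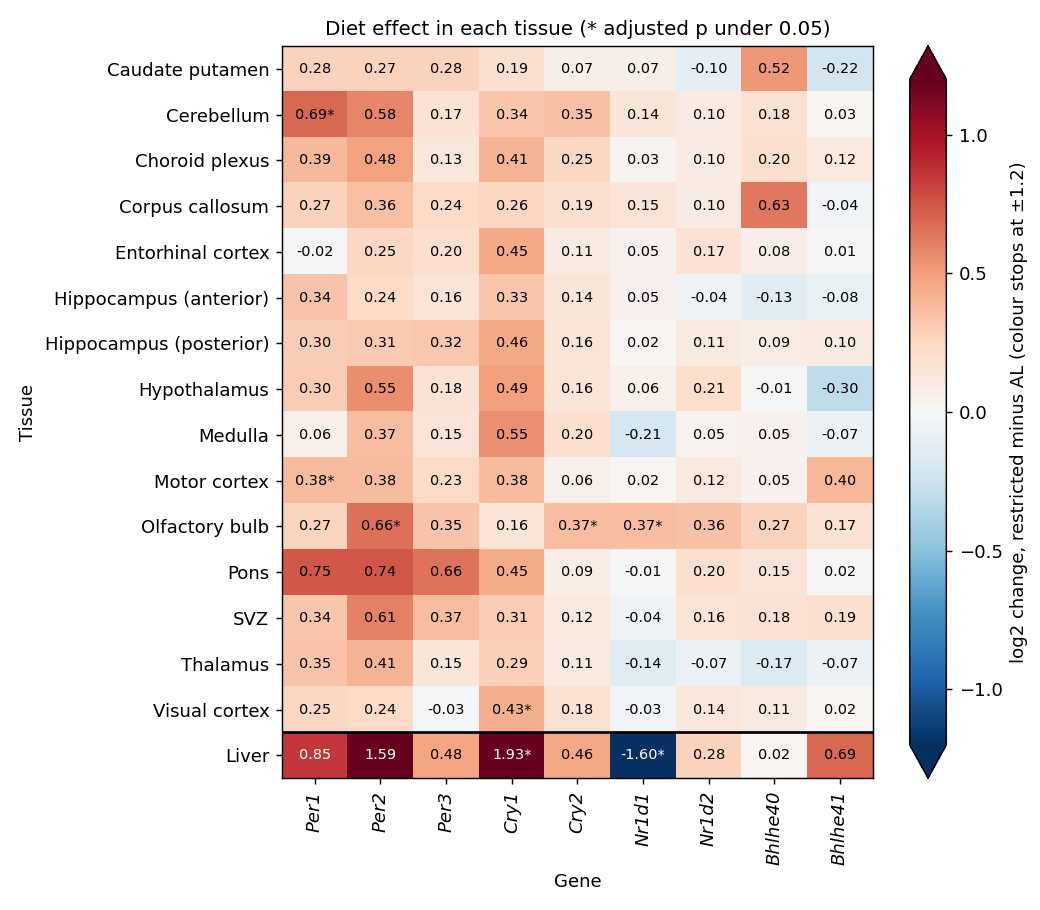
Log2 change of each repressor (columns) under dietary restriction in 15 brain regions and liver (rows), from edgeR fits of each tissue, with red for higher and blue for lower in restricted mice. Stars mark an adjusted p under 0.05. Cry1, Per2 and Cry2 are above 0 in every tissue, and Nr1d1 is 0.37 in olfactory bulb and -1.60 in liver.

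In the liver of restricted mice, Cry1 was higher and Nr1d1 lower. Of the 9 repressors, Cry1 was called higher and Nr1d1 lower (edgeR), where 0.220% of genes tested in liver were called. The groups did not overlap for 5 of 9, Per2, Cry1, Cry2, Nr1d1 and Bhlhe41, against 4.22% of all genes. The median change of the 9 was 0.48, and that of all genes 0.018. Cry1 read 12.3, 12.9, 16.2, 11.7 and 20.6 CPM in the DR mice 61, 62, 64, 65 and 67 and 4.27, 3.85, 3.23 and 4.09 CPM in the AL mice 63, 66, 68 and 69. Each DR mouse was well above all AL mice, and the change was 1.93 ± 0.21 (log2 ± SE, edgeR, adjusted p = 0.00470). Nr1d1 read 58.2, 35.0, 40.2, 28.9 and 30.0 CPM in the DR mice and 162.0, 120.7, 91.4 and 94.2 CPM in the AL mice. The groups did not overlap, and Nr1d1 fell by 1.60 on the log2 scale (SE 0.24, edgeR, adjusted p = 0.0254). The Cry1 call held without any single mouse, whereas that of Nr1d1 was lost without DR mouse 62, 64 or 65 or AL mouse 63, 66 or 69 (edgeR, adjusted p up to 0.0899).

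Counts were made without strand, and exons of Nr1d1 and of Thra, which encodes a thyroid hormone receptor, lie on opposite strands and share 263 bases, or 8.55% of the exon bases of Nr1d1 in GENCODE (GRCm38). Thra had a change of -1.05 ± 0.31 in liver (edgeR, adjusted p = 0.246) and of 0.15 ± 0.064 in olfactory bulb (adjusted p = 0.318), so the value of Nr1d1 is uncertain by the reads that may come from that overlap. Cry2, Bhlhe40 and Bhlhe41 overlap transcripts of the opposite strand that the count table does not list, by 4.67%, 2.51% and 19% of their exon bases, and their values are uncertain in the same way.

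The other liver values did not pass the threshold. Per2 read 42.7, 99.4, 92.9, 60.6 and 40.0 CPM in the DR mice and 20.6, 25.9, 23.4 and 19.5 CPM in the AL mice. No values overlapped, but the DR mice were spread widely, and the change was 1.59 ± 0.29 (edgeR, adjusted p = 0.0674). Per2 was past the threshold without DR mouse 61 (adjusted p = 0.0330) or 67 (0.0349). Cry2 was 46.5 ± 3.32 CPM (SD, n = 5) in DR and 33.8 ± 3.28 (n = 4) in AL livers, a change of 0.46 ± 0.12 (edgeR, adjusted p = 0.201). Bhlhe41 was barely detected in liver, at 3.78 ± 0.837 against 2.33 ± 0.388 CPM, a change of 0.69 ± 0.23 (edgeR, adjusted p = 0.340). Per1 was 45.0 ± 15.1 against 25.2 ± 9.48 CPM (0.85 ± 0.30, adjusted p = 0.375) and Per3 170.8 ± 71.0 against 122.7 ± 25.2 CPM (0.48 ± 0.30, adjusted p = 0.717), both with overlapping groups. Nr1d2, the paralogue of Nr1d1, was 88.9 ± 18.0 against 73.4 ± 15.4 CPM (0.28 ± 0.19, adjusted p = 0.765). Bhlhe40 was 162.0 ± 23.8 against 159.2 ± 30.3 CPM (0.024 ± 0.17, adjusted p = 0.989). None of the 5 liver cell markers was called in this comparison.

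**Figure D4:**
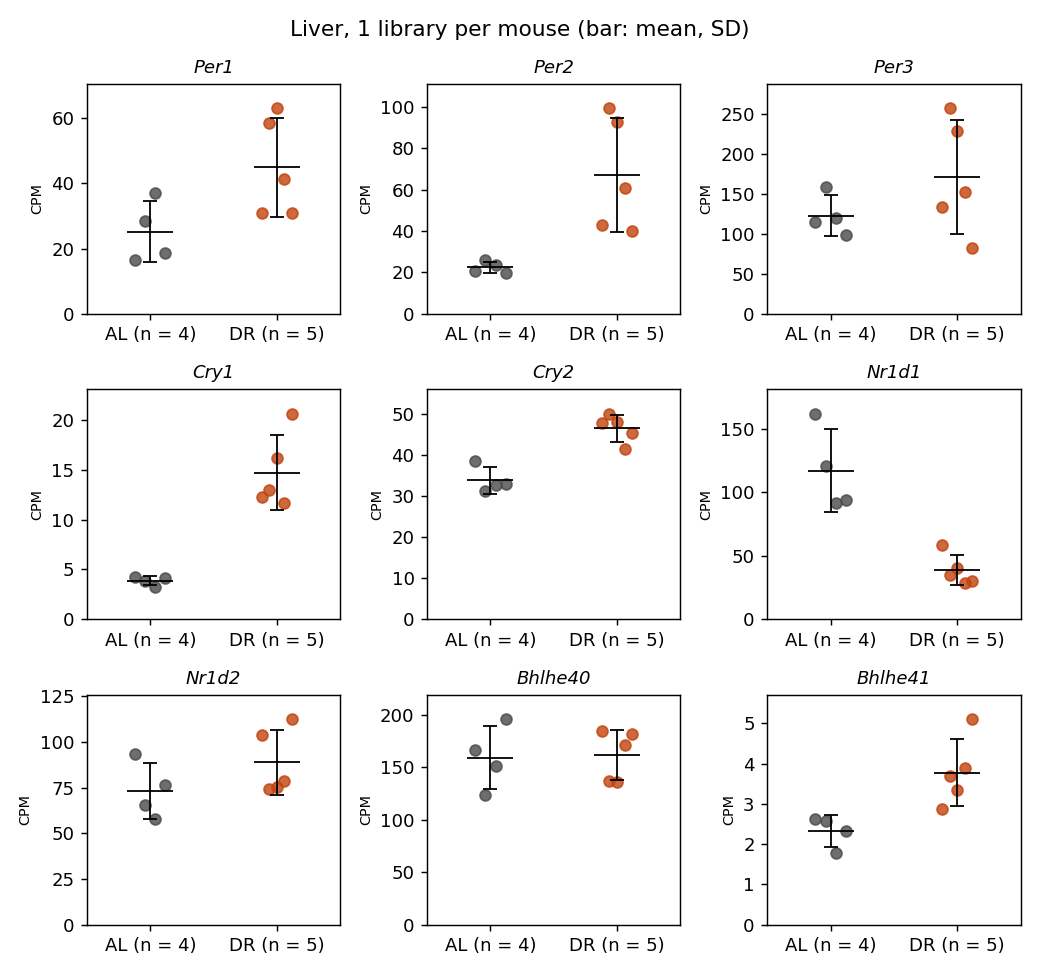
Liver level of the 9 repressors in CPM on linear axes from 0, with 1 point per mouse, horizontal marks for means and vertical bars for SDs. DR livers lie between 11.7 and 20.6 CPM for Cry1, above all AL livers, and between 28.9 and 58.2 CPM for Nr1d1, below all AL livers.

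The 9 mice gave both brain and liver, so the difference between the diet effects could be tested within mice (limma on each mouse's liver log2 CPM after subtraction of its brain value, over 11350 genes). For Cry1 the liver effect exceeded the brain effect by 1.47 ± 0.18 (log2 ± SE, adjusted p = 0.0185). For Nr1d1 it was lower by 1.64 on that scale (liver minus brain -1.64 ± 0.24, adjusted p = 0.0358). These were the called genes among the 9, where 0.0881% of genes were called. Per2 (1.06 ± 0.31, adjusted p = 0.306) and Bhlhe41 (0.61 ± 0.18, adjusted p = 0.313) did not pass. Both calls were lost without AL mouse 63, 66, 68 or 69 or aDR mouse 64, that of Nr1d1 also without aDR mouse 62, 65 or 67, with adjusted p up to 0.0753 for Cry1 and 0.143 for Nr1d1.

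**Figure D5:**
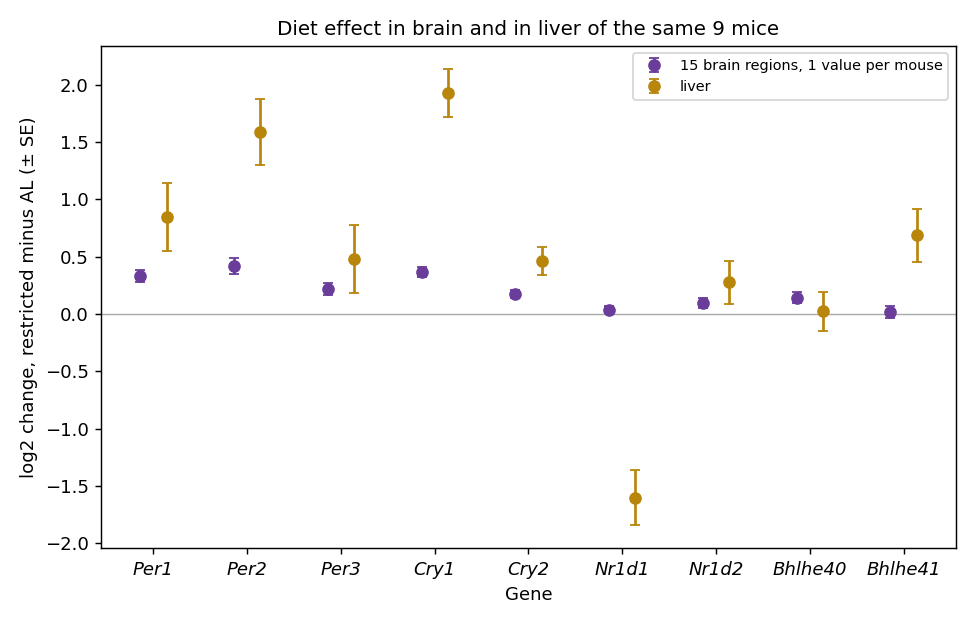
Log2 change under dietary restriction (± SE) of each repressor over the brain regions (limma, 1 value per mouse) and in liver (edgeR) of the same mice. Cry1 is 0.37 in brain and 1.93 in liver, and Nr1d1 is 0.034 in brain and -1.60 in liver.

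The other clock genes, taken from lists by role, moved in the brain as follows. Of 7 activators and partners of the second loop, Arntl fell by 0.32 on the log2 scale (SE 0.035, limma, adjusted p = 0.00736) and Nfil3, a repressor that competes at D-boxes, fell by 0.21 (SE 0.026, adjusted p = 0.0109). Clock was lower without overlap but not called (-0.091 ± 0.025, adjusted p = 0.136). Of 7 genes listed under clock output, 4 were called higher by limma: Ciart (0.76 ± 0.037, adjusted p = 8.8e-05), Dbp (0.37 ± 0.049, adjusted p = 0.0164), Usp2 (0.30 ± 0.035, adjusted p = 0.0109) and Tef (0.17 ± 0.029, adjusted p = 0.0360). Of 8 kinases and ubiquitin ligases that act on PER and CRY proteins, 0 were called by limma, with an unadjusted p under 0.05 for Btrc alone (0.0347).

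Per1 and Per2 also belong to the genes that glucocorticoid receptors and neuronal activity can induce, so lists for both were read beside them. Of 10 glucocorticoid-responsive genes, 10 had a change above 0 and 2 were called higher, Tsc22d3 (0.50 ± 0.069, limma, adjusted p = 0.0208) and Zbtb16 (0.57 ± 0.090, adjusted p = 0.0307), with a list median of 0.39 where the median of all genes was -0.0062. Of 10 immediate early genes, 5 were above 0 and 0 were called by limma, with an unadjusted p under 0.05 for Nr4a1 alone (0.0220) and a list median of 0.042. What part either response has in the repressor result was not tested. In the liver, Usp2 (2.01 ± 0.16, edgeR, adjusted p = 0.00088), Ciart (1.97 ± 0.19, adjusted p = 0.0023) and Zbtb16 (1.66 ± 0.22, adjusted p = 0.0153) were among the listed genes called higher. Arntl stood at a low level there and was not called. It read 2.19, 0.924, 0.836, 0.834 and 1.86 CPM in the DR mice 61, 62, 64, 65 and 67. The AL mice 63, 66, 68 and 69 read 2.63, 2.56, 2.42 and 3.09 CPM. These groups did not overlap, with DR lower, where 4.22% of all genes had no overlap in either direction.

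Young plasma gave no called repressor. In the comparison of 3 YMP with 4 PBS males, 0 of 9 repressors were called across the brain by limma, where 0% of 15768 genes were called. The unadjusted p was under 0.05 for 1 of the 9, Cry1. The YMP values of Cry1 were 5.29, 5.32 and 5.40 log2 CPM in mice 73, 77 and 81, and the PBS values 5.23, 5.18, 5.26 and 5.14 in mice 72, 76, 80 and 84. YMP mice were above all PBS mice by a narrow margin, with a difference of 0.13 ± 0.049 (limma, adjusted p = 0.560). Nr1d2 lay without overlap in the other direction, at 6.94, 6.93 and 7.02 against 7.05, 7.03, 7.04 and 7.22, a difference of -0.12 ± 0.060 (adjusted p = 0.644), which came to -0.080 without PBS mouse 84. These 2 of 9 without overlap compare with 10.1% of all genes. A fit on all 98 libraries with mouse as a block called 2 repressors higher, Per2 and Cry1 (limma voom, adjusted p = 0.0310 and 0.0486). That fit too uses 1 within-mouse correlation for all genes, so its p-values do not measure the spread between mice alone. The test on 1 value per mouse gave an adjusted p of 0.652 for Per2 and 0.560 for Cry1 (limma). The share of all genes that the block fit called was not computed.

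The PBS males differed much among themselves in 3 of the repressors. Per1 was 4.65, 4.65, 4.31 and 5.16 log2 CPM in the PBS mice 72, 76, 80 and 84, and 4.76, 4.88 and 4.88 in the YMP mice, so the spread of the controls (SD 0.35) exceeded the difference of 0.15 ± 0.18 (limma, adjusted p = 0.847). Mouse 84 had the highest Per1 of the PBS mice in 13 of 15 regions, and mouse 80 the lowest in 10. Mouse 84 was also highest for Nr1d1 in 15 of 15 regions and for Bhlhe41 in 14 of 15. The share of variance within groups that lay between mice (intraclass correlation) was 0.54 for Per1, 0.48 for Bhlhe41 and 0.45 for Nr1d1, where the median gene had 0.053. These values lay above those of 98.1%, 97.2% and 96.5% of the 15768 genes. In the diet experiment it was 0.15 for Per2 and 0.080 for Per1, with a median gene at 0.026.

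In single regions under plasma, 0 of 135 repressor-region pairs were called by edgeR, 9 had an unadjusted p under 0.05, and 0.0127% of gene-region pairs were called. DESeq2 called 1, Cry1 in caudate putamen, where edgeR gave 0.48 (adjusted p = 0.474), chosen here after its value was seen. Per2 was higher in 14 of 15 regions and Nr1d1 lower in 14 of 15, with regions that share the same 7 mice. The Nr1d1 count rests on PBS mouse 84: without it, a count added after seeing the data, Nr1d1 was lower in 9 regions and higher in 6, and its difference across the brain went from -0.088 to -0.022. For Per1 the shift was the other way: without that mouse it was higher in 13 of 15 regions, against 9 with it. The Per1 difference across the brain then went from 0.15 to 0.30 and was not called. The difference of Per2 across the brain went from 0.18 to 0.084 without YMP mouse 81. The test of region by plasma terms called 0.786% of genes and 0 of the repressors, of which 0 had an unadjusted p under 0.05. Choroid plexus markers differed widely in this experiment: the choroid plexus library of YMP mouse 73 held 159 CPM in sum, against 7921 to 10380 CPM in the PBS libraries. Leaving out the choroid plexus left 0 repressors called across the brain. Whether plasma and diet act differently on these genes was not tested, as the experiments differ in sex.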

How the data were processed

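Bulk mRNA of 15 brain regions and liver was measured with Smart-Seq2 cDNA and Nextera XT libraries without strand, per the labels' protocols. The deposited values are whole-number read counts per gene made by the authors, and the submitters' processing notes name Trim Galore 0.3.7, STAR 2.5.3a, DESeq2 and the build GRCm38. The counting program and annotation are not given in the sources used here. Reads carry no molecular identifiers, so precision from counts covers counting error only. Groups were formed from the region and treatment that the labels give.

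From the counts, each tissue was fitted alone with edgeR 4.0.16 (R 4.3.3; quasi-likelihood test, filterByExpr with minimum count 10 and minimum total 15, TMM), without covariates. Across regions, limma 3.58.1 compared 1 value per mouse (mouse term of log2 CPM, prior count 2, after region). P-values were adjusted by Benjamini-Hochberg over all genes tested, and a gene was called at an adjusted p under 0.05. Printed CPM use TMM over all brain libraries of an experiment, or over liver. Alternatives were DESeq2 1.42.0, other scaling and filters, mouse as a block, and leaving out mice, shallow libraries or choroid plexus. The pons library of aDR mouse 67 was left out in an alternative chosen after seeing the data. Scripts were tested on simulated counts. These held no mouse effect shared between regions, so they do not show how the fits handle that dependence.

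A mouse number ties together the regions of an animal and never pairs treated with control mice. Deviations from group means correlated by 0.040 on average between regions of a mouse in the diet and 0.0717 in the plasma experiment, against -0.0049 and -0.012 between mice. The 357 pairs of replicate libraries all differed beyond sampling noise (chi-square per degree of freedom at least 1.29). Positions and overlaps are from GENCODE M21 on GRCm38. The members and gene lists were chosen with earlier results of these data known. Named were all members, each member called in a region with its highest and lowest region, and the genes most alike. The liver result of a listed gene is not reported here.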

Additional observations from a re-analysis of the deposited data

Results flagged for a closer look

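The diet effect on Cry1 was larger in liver than in brain by 1.47 on the log2 scale, and that on Nr1d1 differed by -1.64, by a test of the difference within mice (limma, adjusted p = 0.0185 and 0.0358). Single values far from the rest of their group, by Dixon's criterion at 95%, were found in 4 of 57 groups of 4 or 5 mice, where chance gives about 1 in 20. Over the brain regions, the Nr1d2 value of aDR mouse 64 was 7.10 log2 CPM against 7.25 to 7.28 in the other aDR mice. The Nr1d1 value of PBS mouse 84 was 7.14 against 6.85 to 6.87 in the other PBS mice, and its Nr1d2 value was 7.22 against 7.03 to 7.05. In cerebellum, Per1 of aDR mouse 67 was 63.9 CPM against 47.8 to 52.3 in the other aDR mice.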

How the results depend on the processing

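Of the 565 values recomputed for single genes, 472 kept direction and side of the threshold, 62 lost the call, 20 gained it and 11 changed sign, the last all in values that were not called. In single regions under diet, 6 repressor-region pairs were called, 16 with DESeq2, and 1 to 9 with single mice left out. In liver 2 were called, 4 with DESeq2, and 1 to 3 with single mice left out. Across the brain under diet 3 were called, 5 with mouse as a replicate block, 7 with no replicate block on all libraries, and 0 to 4 with single mice left out. Of liver minus brain effects 2 were called, and 0 to 2 with single mice left out. Under plasma 0 were called, but across the brain 2 with mouse as a replicate block and 4 with no replicate block, and in single regions 1 with DESeq2. The fit with no block treats the regions of a mouse as independent, and the block fit uses 1 correlation for all genes. The share of all genes called was not computed for these alternatives, so their counts are no result about the repressors. The block moved no call of the region by treatment tests. Signs turned for Nr1d2 in caudate putamen without the library of aDR mouse 64 (0.083), for Bhlhe41 across the brain under diet without aDR mouse 61 (-0.0067) or AL mouse 68 (-0.018; up to 0.045 without others), for liver Bhlhe40 without DR mouse 61 (-0.027) or 67 (-0.024) or AL mouse 66 (-0.081) or 68 (-0.0012; up to 0.14), for the liver minus brain value of Per3 without aDR mouse 62 (-0.00084; up to 0.44), and under plasma for Per3 without YMP mouse 77 (0.0053; down to -0.082), Bhlhe40 without YMP mouse 81 (-0.0027; up to 0.076) and Bhlhe41 without PBS mouse 84 (0.041; down to -0.18). Leaving out mice lowers the sample number, and the cause of other shifts was not tested. Depth sets the counting error of single libraries, and the lowest count of a repressor in any library was 11, for Bhlhe41.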
